A study of Mus musculus with 9 samples.

Results

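The genes described here are 7 mouse liver lobule zonation markers, 5 of the pericentral zone (Glul, Slc1a2, Rhbg, Lgr5 and Tbx3) and 2 of the periportal zone (Gls2 and Cdh1). They were listed by symbol, with earlier results of these data known, and all 7 were found among the 55335 genes of the deposited table. Liver RNA came from 9 offspring, 3 each from natural conception (NC), in vitro fertilization with transfer of fresh embryos (IVF), and in vitro fertilization with transfer of frozen and thawed embryos (FET). All mice were of strain B6D2F2, 20 weeks old and fasted for 4 h, and the methods add that they were chow-fed males. Both transfer groups came from oocytes of superovulated females, fertilized in vitro and moved at the 2-cell stage to ICR recipients. The FET embryos were moved after slow freezing with a cryoprotectant, thawing and a further short culture. NC pups came from natural pregnancies and had no recipient. Superovulation, fertilization in vitro, culture, transfer and recipient therefore cannot be told apart in a comparison with NC. The labels number the mice 1, 5 and 6 in NC and 2, 3 and 4 in IVF and in FET. Nothing says that the 3 mice of a group came from separate litters, so the spread between them may be smaller than that between litters.

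The liver lobule is a unit of hepatocyte plates through which blood runs from the portal tract to the central vein, and hepatocytes along this path carry out different tasks. Periportal hepatocytes make urea and glucose and break glutamine down, while the hepatocytes next to the central vein take up the ammonia that is left and bind it into glutamine. Wnt ligands and R-spondin 3 from the endothelium of the central vein maintain the pericentral program through beta-catenin, and Glul, Slc1a2, Rhbg, Lgr5 and Tbx3 are commonly used readouts of it.

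Values are FPKM, which divide a gene's fragments by its length and by all fragments mapped in that library. The table holds no counts, and the depth estimated from the steps between low values was 6530000 to 13140000 fragments in NC, 3830000 to 8290000 in IVF and 1990000 to 2890000 in FET, so every FET library was smaller than every other. Nuclear protein-coding genes took between 4.4% (IVF mouse 2, FET mouse 4) and 29.3% (IVF mouse 4) of the summed FPKM, and 3 abundant non-coding entries took between 3.5% (NC mouse 5) and 61.9% (IVF mouse 2). Because that share moves every marker of a library together, each value is also given rescaled, so that nuclear protein-coding genes sum to 1000000 in each mouse. Alb, the hepatocyte albumin gene, lay between 1324 FPKM in FET mouse 4 and 20585 FPKM in IVF mouse 4. In bulk liver, fewer cells of a type and less RNA per cell cannot be told apart.

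Of the 7 markers, 2 (Glul and Slc1a2) had an upstream window in the RefSeq promoter table of build GRCm38.p6. Their 250 bases before the RefSeq start are shown because both are pericentral readouts of beta-catenin activity, and capitals mark CTTTGA or its reverse TCAAAG, a core of the site bound by the TCF and LEF partners of beta-catenin. The Glul window is at chr1:153899679-153899928 and the Slc1a2 window at chr2:102706188-102706437, both on the plus strand.
Glul: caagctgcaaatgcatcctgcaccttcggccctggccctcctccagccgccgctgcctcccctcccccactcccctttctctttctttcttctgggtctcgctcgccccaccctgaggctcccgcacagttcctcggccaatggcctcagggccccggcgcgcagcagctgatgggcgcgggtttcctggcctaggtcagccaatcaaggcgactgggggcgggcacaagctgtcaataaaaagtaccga
Slc1a2: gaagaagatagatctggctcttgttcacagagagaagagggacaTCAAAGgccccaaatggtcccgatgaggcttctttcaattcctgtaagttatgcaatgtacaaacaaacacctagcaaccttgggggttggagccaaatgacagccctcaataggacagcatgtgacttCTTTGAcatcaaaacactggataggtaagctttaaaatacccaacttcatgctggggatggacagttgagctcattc
The Glul window held no match to these letters. In the Slc1a2 window there were 2 matches, TCAAAG beginning 206 bases and CTTTGA beginning 77 bases before the start. Of all 32851 windows of this length in the table, 13.8% held at least 1 match and 1.37% held 2 or more, and a match is a description of letters only. The Slc1a2 window lies within the annotated gene and shares 29 bases with the first exon of transcript Slc1a2-205. The CTTTGA match is inside that exon. The Glul window is covered on the opposite strand by a retained-intron transcript of Teddm2, a gene with at most 1.03 FPKM in any mouse. On the same strand the microRNA gene Mir8114 (153899926 to 153900036) reaches into the end of the window and shares 93 exonic bases with Glul. It was listed at 0 in FET mice 2 and 3 and had 2.595 to 8.28 FPKM in the other 7, and how fragments were divided between it and Glul is not given in the sources used here.

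Glul (ENSMUSG00000026473, chromosome 1, 153899944 to 153909723, plus strand, GRCm38) encodes glutamine synthetase, which joins ammonia to glutamate in the last hepatocytes before the central vein. It was the marker with the highest FPKM in every mouse. NC mice 1, 5 and 6 had 69.4, 89.5 and 112 FPKM. Among IVF mice 2, 3 and 4 the values were 27.7, 67.2 and 187 FPKM, and FET mice 2, 3 and 4 had 38.5, 89.6 and 35.1 FPKM. The 3 groups overlapped, and the lowest and the highest of the 9 values were both IVF mice. After rescaling the range narrowed from 6.73-fold to 1.92-fold and the coefficient of variation over the 9 mice from 61.8% to 16.7%. Rescaled Glul was 739.7, 647 and 713 in NC and 708, 614 and 810.1 in IVF. In FET it was 421, 693 and 773, so that FET mouse 2 stood below the other 8 mice, which lay within 614 to 810.1.

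Slc1a2 (ENSMUSG00000005089, chromosome 2, 102658659 to 102790784, plus strand) encodes the glutamate transporter GLT-1, which brings the substrate of glutamine synthetase into the same hepatocytes. In NC mice 1, 5 and 6 it had 3.01, 4.22 and 6.96 FPKM. The IVF values were 1.04, 3.55 and 7.49 FPKM, and the FET values 1.89, 2.77 and 0.830 FPKM. Every FET mouse was thus below every NC mouse, which was also so for 17.1% of the 6755 genes tested, while FET and IVF overlapped. Rescaled values were 32.1, 30.5 and 44.4 in NC, 26.5, 32.5 and 32.5 in IVF and 20.6, 21.4 and 18.3 in FET. On this scale all 3 FET mice lay below the other 6, as they did for 3.7% of the genes tested, and the FET values spread by 1.62 (SD, n = 3) around a mean of 20.1. The FET values rest on an estimated 44, 89 and 28 fragments, against 100 to 1060 in the other mice. An antisense gene, Gm13872, shares 189 exonic bases with Slc1a2 and reached at most 0.14 FPKM.

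Rhbg (ENSMUSG00000104445, chromosome 3, 88242874 to 88254709, minus strand) encodes an ammonium transporter of the Rh family in the membrane of pericentral hepatocytes. NC mice 1, 5 and 6 had 1.62, 3.13 and 3.44 FPKM, and IVF mice 2, 3 and 4 had 0.805, 1.85 and 13.6 FPKM. FET mouse 3 had 4.02 FPKM, while FET mice 2 and 4 were listed at 0. The rescaled values were 17.3, 22.7 and 22.0 in NC, 20.6, 17.0 and 59.0 in IVF, and 31.1 in FET mouse 3. IVF mouse 4 was the highest on both scales, and FET mouse 3 was second on both. A value of 0 in these libraries is not read as absence, since Pgk1 and Pgam1, glycolytic genes used by nearly every cell, are also listed at 0 in FET mouse 2, and Hprt in FET mouse 4. A same-strand gene, Gm38392 (88243380 to 88287210), shares 1190 exonic bases with Rhbg and is listed at 0 in all 9 mice, and how fragments were divided between the 2 genes is not given in the sources used here.

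Lgr5 (ENSMUSG00000020140, chromosome 10, 115450311 to 115587780, minus strand), the R-spondin receptor and Wnt target gene, was at the limit of detection. It had 0.236 and 0.216 FPKM in NC mice 5 and 6 and was listed at 0 in NC mouse 1. IVF mice 2, 3 and 4 had 0.153, 0.370 and 0.557 FPKM, and FET mouse 3 had 0.423 FPKM with FET mice 2 and 4 listed at 0. Each value above 0 stands for an estimated 6 to 13 fragments, and the mean over the 9 mice, 0.217 FPKM, was under the minimum of 1 FPKM for a test. Rescaled Lgr5 was 3.90, 3.38 and 2.42 in IVF and at most 1.71 in NC, so these groups did not overlap. IVF stood wholly above NC in the same way for 4.87% of the genes tested.

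Tbx3 (ENSMUSG00000018604, chromosome 5, 119670669 to 119684724, plus strand), a T-box transcription factor and beta-catenin target, had its highest FPKM in NC mice 5 and 6 and FET mouse 2. Its FPKM was 0.433, 2.82 and 2.87 in NC mice 1, 5 and 6. The IVF mice had 0.592, 1.17 and 0.719 FPKM and the FET mice 2.42, 1.24 and 1.98 FPKM. As deposited, all FET mice lay above all IVF mice, as they did for 1.27% of the genes tested, and NC spanned both. On the rescaled values (4.62, 20.4 and 18.3 in NC, 15.1, 10.7 and 3.12 in IVF, 26.5, 9.56 and 43.6 in FET) FET and IVF overlapped, because FET mouse 3 fell below IVF mice 2 and 3. The lowest Tbx3 values rest on few fragments, an estimated 14 in NC mouse 1 and IVF mouse 4 and 17 in FET mouse 3. The antisense gene Tbx3os1 shares 115 exonic bases with Tbx3 and ranged from 1.09 FPKM in IVF mouse 3 to 9.47 FPKM in FET mouse 3. The labels do not say whether the libraries kept strand, and the part of Tbx3os1 in the Tbx3 values was not tested.

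Gls2 (ENSMUSG00000044005, chromosome 10, 128194457 to 128210004, plus strand) encodes the liver-type glutaminase, which frees ammonia from glutamine for the urea cycle in periportal hepatocytes. NC mice 1, 5 and 6 had 9.61, 35.3 and 40.5 FPKM. IVF mice 2, 3 and 4 had 3.55, 11.6 and 18.3 FPKM, and FET mice 2, 3 and 4 had 8.72, 12.7 and 5.86 FPKM. NC mice 5 and 6 stood above the other 7 mice, and NC mouse 1 was within the range of IVF and of FET. Rescaling left this picture in place, with 102, 255 and 258 in NC, 90.7, 106 and 79.2 in IVF and 95.5, 97.9 and 129 in FET. NC mice 5 and 6 were both above the other 7 mice on rescaled values in 9.68% of the genes tested. The opposite-strand gene Spryd4 shares 97 exonic bases with Gls2 and reached 4.9 FPKM.

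Cdh1 (ENSMUSG00000000303, chromosome 8, 106603351 to 106670246, plus strand) encodes E-cadherin, the adhesion protein of epithelia, which is stronger on periportal than on pericentral hepatocytes and is also made by bile duct cells. NC mice 5 and 6 had 0.835 and 0.612 FPKM and NC mouse 1 was listed at 0. IVF mice 2, 3 and 4 had 0.194, 0.247 and 1.12 FPKM. In FET, mouse 3 had 2.68 FPKM, the highest of the 9 values, and mice 2 and 4 were listed at 0. The mean of 0.633 FPKM kept Cdh1 out of the test, and its groups overlapped on both scales. Of 6 bile duct markers, Cftr was at 0 in every mouse and Krt7 in every FET mouse, and their rescaled sum was 68.2 to 123 in NC, 39.5 to 44.8 in IVF and 36.6 to 106 in FET. The part of bile duct cells in the Cdh1 values was not tested.

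**Figure D1:**
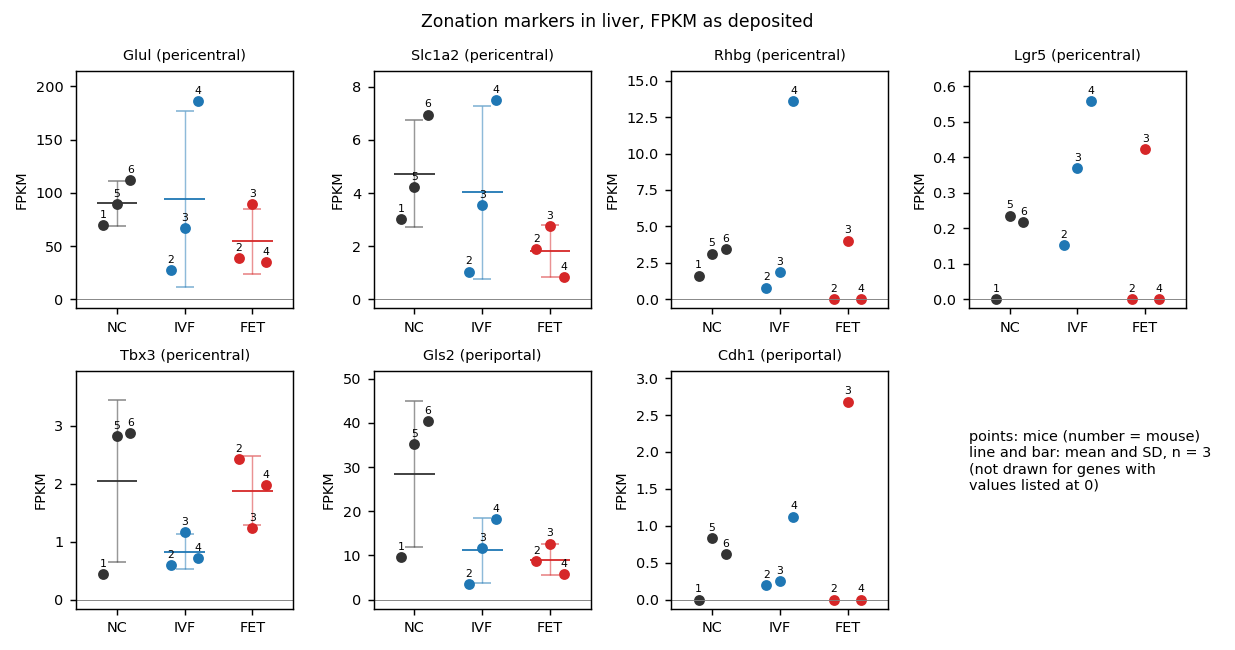
FPKM of the 7 markers in each of the 9 mice, 1 panel per gene, with points numbered by mouse and, for the 4 genes above 0 in all mice, the mean and SD of 3 mice per group. IVF mouse 4 is the highest point for Glul, Slc1a2, Rhbg and Lgr5, and FET mice 2 and 4 are at 0 for Rhbg, Lgr5 and Cdh1.

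**Figure D2:**
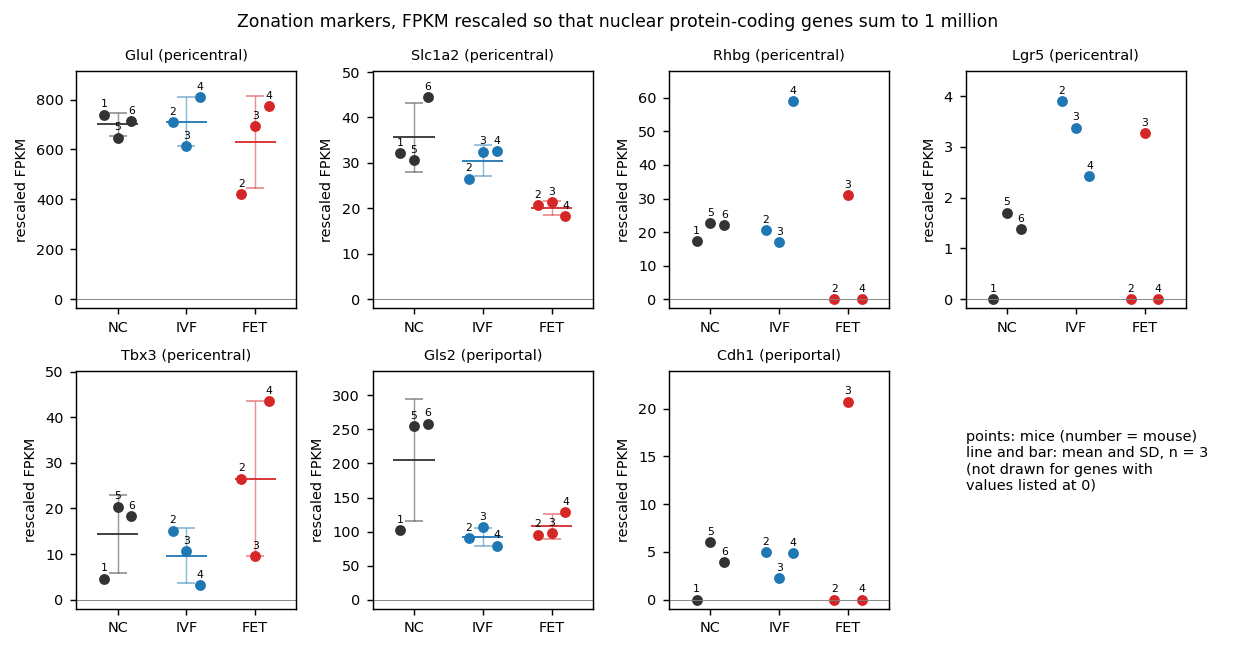
The same 7 genes after rescaling each library so that nuclear protein-coding genes sum to 1000000, drawn in the same way. The 3 FET points of Slc1a2 (18.3 to 21.4) lie below the other 6, and NC mice 5 and 6 (255 and 258) stand above the other 7 points of Gls2.

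IVF mouse 4, the library with the largest protein-coding share, held the highest deposited value of 4 of the 7 markers (Glul, Slc1a2, Rhbg and Lgr5), but it also held the highest value of 43.5% of all genes tested. On rescaled values that share was 4.63%, and IVF mouse 4 remained the highest for Glul and Rhbg. FET mice 2 and 4 were listed at 0 for 3 markers each, the same 3 (Rhbg, Lgr5 and Cdh1), and NC mouse 1 for Lgr5 and Cdh1. These 3 libraries had the most genes listed at 0, with 70.6% (FET mouse 2), 60.3% (FET mouse 4) and 55.0% (NC mouse 1) of the 27411 genes above 0 in any mouse. Both FET mice were listed at 0 for 54.3% of those genes, and for 6.71% of the genes tested, which include Rhbg. In order of mean FPKM over the 9 mice the markers ran Glul (79.5), Gls2 (16.2), Slc1a2 (3.53), Rhbg (3.16), Tbx3 (1.58), Cdh1 (0.633) and Lgr5 (0.217). Glul was above Gls2 in each of the 9 mice, whereas the order of Slc1a2 and Rhbg changed between mice, with Rhbg higher in IVF mouse 4 and FET mouse 3 only.

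FET was first compared with NC, from which it differs by superovulation, fertilization in vitro, freezing and thawing, culture, transfer and recipient. No marker passed an adjusted p of 0.05 in limma on log2(FPKM + 1), and 5 of the 7 (Glul, Slc1a2, Rhbg, Tbx3 and Gls2) could be tested. In the same test 0.237% of all genes were called, 4 higher and 12 lower in FET, and on rescaled values 0.207%, 2 higher and 12 lower. Leaving out 1 mouse moved the rescaled count to between 2 and 211, and without NC mouse 1 it was 42 higher and 34 lower. Slc1a2 averaged 4.73 ± 2.02 FPKM (SD, n = 3) in NC and 1.83 ± 0.969 in FET, a log2 difference of -1.02 (SE 0.669, 95% interval -2.37 to 0.325, limma adjusted p = 0.556). The Rhbg difference was -1.09 (SE 0.690, interval -2.48 to 0.303, limma adjusted p = 0.542), and it includes the libraries listed at 0, so that its size depends on the scale and the pseudocount (-2.97 with a pseudocount of 0.1 and -0.90 with median-ratio scaling). Without FET mouse 3, which leaves FET mice 2 and 4 listed at 0, the Rhbg difference was -1.86 as deposited. Rescaled it was then -4.43 and passed the threshold (limma adjusted p = 0.0154). The same fit without FET mouse 3 called 211 of the 6755 genes tested, against 14 with all mice. Gls2 averaged 28.5 ± 16.5 FPKM in NC and 9.08 ± 3.41 in FET, with a log2 difference of -1.38 (SE 0.896, limma adjusted p = 0.554). Without NC mice 5 and 6, which leaves 1 NC mouse, the Gls2 difference was -0.13 as deposited and 0.06 rescaled. The other markers moved as well, to -0.57 for Slc1a2, -0.61 for Rhbg, -0.48 for Glul and 0.98 for Tbx3. Rescaled, these were -0.65, -2.52, -0.28 and 2.06. The deposited median over all genes tested was then -0.15. With all NC mice kept, Glul was lower by less than its standard error (-0.83, SE 1.07), and Tbx3 stood at 0.04 (SE 0.589). The median over all genes tested was -0.46, so 4 of the 5 markers lay below it. On rescaled values that median was -0.18, and the estimates were -0.78 for Slc1a2 (interval -1.62 to 0.0636, limma adjusted p = 0.338), -0.82 for Gls2 (0.348), -2.76 for Rhbg (0.319), -0.20 for Glul (0.757) and 0.83 for Tbx3 (0.627), with the adjusted p in parentheses. The rescaled sum of 6 markers of Kupffer cells, the macrophages of the liver, was 140 to 181 in NC, 104 to 179 in IVF and 857, 187 and 238 in FET mice 2, 3 and 4, and the part of these cells in the marker values was not tested.

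The comparison of IVF with NC covers superovulation, fertilization in vitro, culture, transfer and recipient, without freezing. No marker was called there either, against 0.0592% of all genes in the same limma fit and 0.0% on rescaled values, where 315 genes had an unadjusted p under 0.05. Gls2 gave the largest difference, with a mean of 11.1 ± 7.36 FPKM (SD, n = 3) in IVF, a log2 difference from NC of -1.28 (SE 0.896, limma adjusted p = 1). Rescaled, it was -1.04 (interval -1.96 to -0.125), with an unadjusted limma p of 0.0299 and an adjusted p of 1. This difference rests on NC mice 5 and 6, since NC mouse 1 (102 rescaled) was within the IVF range of 79.2 to 106. Without those 2 mice the Gls2 difference was -0.04 as deposited and -0.16 rescaled. Glul differed by -0.32 as deposited and 0.02 rescaled, against a median of all genes of -0.25 and -0.11, so its direction changed with the scaling. Slc1a2 (-0.36), Tbx3 (-0.61) and Rhbg (0.22) each differed by about their standard error or less.

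FET was compared with IVF because both groups share fertilization in vitro and the ICR recipients. Freezing, the cryoprotectant, thawing and the further culture of the FET embryos cannot be told apart in it. Of all genes, 0.0888% were called (3 higher, 3 lower), and 0.133% on rescaled values (1 higher, 8 lower), and again no marker. Rhbg gave the largest difference, -1.30 (SE 0.690, limma adjusted p = 1), and -3.17 rescaled (interval -5.94 to -0.391, limma adjusted p = 0.491). The FET side of Rhbg consists of 1 library at 31.1 and 2 listed at 0, and the difference was -3.07 with a pseudocount of 0.1 and -1.31 with median-ratio scaling. Without IVF mouse 4 it was -0.41 as deposited and -2.63 rescaled. Without FET mouse 3, which leaves FET mice 2 and 4 listed at 0, it was -2.08 as deposited. Rescaled it was then -4.83 and passed the threshold (limma adjusted p = 0.0154). That fit called 147 of the 6755 genes tested, against 9 with all mice. Slc1a2 differed by -0.66 (SE 0.669), or -0.57 rescaled, with no overlap between the rescaled groups, which 6.01% of the genes tested also showed in that direction. Tbx3 was higher in FET by 0.65 (SE 0.589), or 1.35 rescaled. Gls2 was at -0.09 as deposited and 0.22 rescaled, and Glul at -0.50 and -0.21. The 3 comparisons share mice, so they are not independent of each other.

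**Figure D3:**
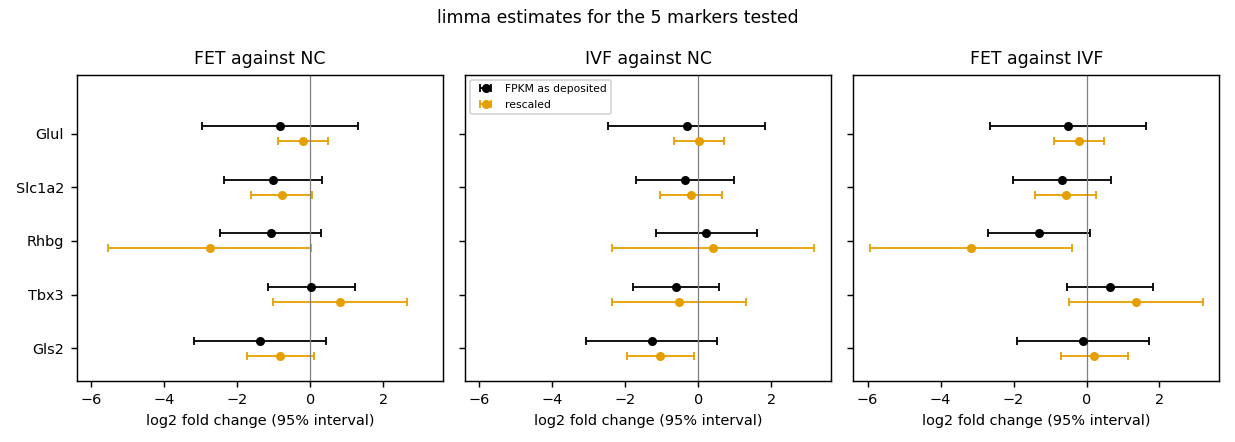
limma log2 fold changes of the 5 tested markers with 95% intervals in FET against NC, IVF against NC and FET against IVF, on FPKM as deposited (black) and rescaled (orange). Rescaling narrows the Glul intervals and widens those of Rhbg, and the intervals that leave out 0 are those of rescaled Gls2 in IVF against NC and rescaled Rhbg in FET against IVF, neither of which passed after adjustment. The Rhbg values include 2 FET libraries listed at 0.

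The ratio of Glul to Gls2 within a mouse sets the RNA of the pericentral glutamine synthetase against that of the periportal glutaminase. A factor common to a library cancels in the FPKM ratio. In NC the FPKM ratio was 7.22 in mouse 1, 2.54 in mouse 5 and 2.76 in mouse 6. IVF mice 2, 3 and 4 had 7.81, 5.79 and 10.2, and FET mice 2, 3 and 4 had 4.41, 7.08 and 5.99. NC mice 5 and 6 were thus below all 7 other mice, and NC mouse 1 was above all FET mice. As a difference of log2(FPKM + 1), which keeps a small part of such a factor through the pseudocount, the means were 1.83 ± 0.782 in NC, 2.79 ± 0.440 in IVF and 2.38 ± 0.354 in FET (SD, n = 3), and the group ranges overlapped. The FPKM ratio of Slc1a2 to Glul was 0.0434 to 0.0623 in NC, 0.0375 to 0.0528 in IVF and 0.0237 to 0.0490 in FET, so all 3 groups overlapped. That of Slc1a2 to Gls2 was 0.120 to 0.313 in NC, 0.292 to 0.410 in IVF and 0.142 to 0.219 in FET. Here FET lay wholly below IVF, while NC overlapped both. The share of other gene pairs that separate in this way was not counted. Rhbg was 0.0233 to 0.0350 of the Glul FPKM in NC, 0.0276 to 0.0728 in IVF and 0.0449 in FET mouse 3, with FET mice 2 and 4 listed at 0.

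**Figure D4:**
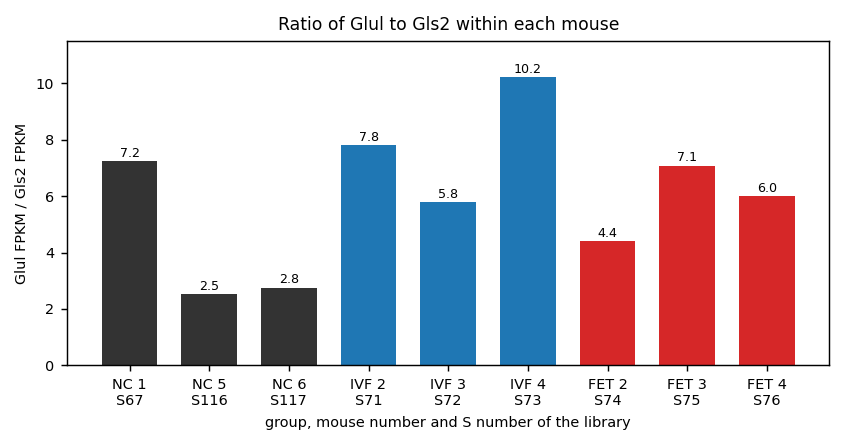
Ratio of Glul to Gls2 FPKM in each of the 9 mice, with the S number of the library under each bar. NC mice 5 and 6 (2.54 and 2.76, S116 and S117) are lower than the other 7 mice (4.41 to 10.2, S67 to S76).

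The labels carry a library number, and NC mice 5 and 6 hold S116 and S117 whereas the other 7 libraries run from S67 to S76. What the number stands for is not said. The 2 libraries also differed from the other 7 in depth (11750000 and 13140000 fragments against at most 8290000), in the share of the 3 abundant non-coding entries (3.5% and 5.0% against 18.1% to 61.9%) and in that of mitochondrial genes (55.3% and 51.9% against 27.6% to 41.5%). To see whether Gls2 was alone, 16 other periportal hepatocyte genes were set beside it, all of them tested. On rescaled values 14 of the 16 were above NC mouse 1 in both NC mice 5 and 6, with median ratios of 2.48 and 2.03, while 43.4% of all genes tested were above in both and the median ratios over all genes were 0.954 and 0.975. Of the 16 genes, 7 were above all 7 other mice in both, against 9.68% of all genes tested, among them Sds, Cyp2f2, Ass1, Pck1, Etnppl and G6pc, which include urea cycle and gluconeogenic enzymes. G6pc, which releases free glucose, had 8.61, 165 and 109 FPKM in NC mice 1, 5 and 6, against 6.495 to 72.96 in IVF and 13.3 to 22.1 in FET. Ass1, a urea cycle enzyme, had 40.5, 236 and 198 FPKM in NC and 25.0 to 136 in the other mice. Of 14 tested pericentral hepatocyte genes, 7 were above NC mouse 1 in both mice, with median ratios of 1.06 and 1.18, and 3 (Cyp27a1, Gulo and Aldh1a1) were above all 7 other mice in both. The part of the library number, the depth and these shares in the periportal values was not tested.

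The wider pericentral program was described by 16 further hepatocyte genes, of which 14 were tested and none was called by limma in any comparison. In FET against NC, 13 of the 14 had a lower estimate, as did 74.4% of all genes tested, 3 with an unadjusted limma p under 0.05 (12.0% of all genes tested), and their median log2 difference was -1.27 against -0.46 for all genes. Rescaled, 12 of 14 had a lower estimate against 56.8% of all genes, with a median of -1.03 against -0.18, and 7 of 14 had an unadjusted limma p under 0.05 against 15.7%. With NC mouse 1 as the only NC library the deposited median was -0.98, against -0.15 for all genes tested. The 3 with the highest mean FPKM were Rgn, Cyp2a5 and Cyp2e1. Cyp2a5, a cytochrome P450 of coumarin metabolism, had 403, 313 and 368 FPKM in NC, 96.7, 207 and 1073 in IVF and 130, 22.2 and 31.7 in FET. Its FET values were below all NC values, as they were for 17.1% of the genes tested. The log2 difference was -2.96 (SE 1.12, limma adjusted p = 0.274), and fragments may be shared with its near-identical copy Cyp2a4. Cyp2e1, the ethanol-oxidizing cytochrome P450, had 175, 254 and 382 FPKM in NC and 112, 129 and 53.9 in FET, so its FET values were also below all NC values. The log2 difference was -1.47 (SE 1.07, limma adjusted p = 0.616). Rgn, which encodes regucalcin, differed by -0.98 (SE 1.09). In IVF against NC the median of the 14 was -0.64, or -0.31 rescaled, against -0.25 and -0.11 for all genes tested. With NC mouse 1 as the only NC library this deposited median was -0.15, against 0.04 for all genes tested. In FET against IVF the median of the 14 was -0.69, or -0.50 rescaled, against -0.20 and -0.05. Leaving out 1 mouse moved the deposited median to between -1.69 (without FET mouse 2) and -0.97 (without FET mouse 4) in FET against NC. In IVF against NC it moved to between -1.14 (without IVF mouse 4) and -0.20 (without IVF mouse 2), and in FET against IVF to between -1.31 (without IVF mouse 2) and -0.06 (without IVF mouse 4). The rescaled ranges were narrower, at -1.18 to -0.82, -0.53 to -0.22 and -0.61 to -0.39.

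The 16 periportal genes held no limma call in any comparison either. Their median in FET against NC was -1.33, or -0.76 rescaled, but with NC mouse 1 as the only NC library it was 0.06, or 0.26 rescaled, so the sign of the periportal median changed with NC mice 5 and 6 while that of the pericentral median did not. For all genes tested the FET against NC median was -0.46, or -0.18 rescaled, and -0.15 with NC mouse 1 as the only NC library. In IVF against NC the periportal median went from -0.76 to 0.41 in the same way, against -0.25 and 0.04 for all genes tested. In FET against IVF the periportal median was -0.42, or -0.16 rescaled, against -0.20 and -0.05. Leaving out 1 mouse gave -1.95 (without NC mouse 1) to -0.86 (without NC mouse 5) in FET against NC and -1.44 (without NC mouse 1) to -0.30 (without IVF mouse 2) in IVF against NC. Among those with the highest mean FPKM, Alb differed in FET against NC by -1.37 (SE 0.83, limma adjusted p = 0.52). Pigr, the receptor that carries antibodies across epithelia, had 92.1, 157 and 115.7 FPKM in NC and 154, 223 and 86.8 in FET, a log2 difference of 0.28 (SE 1.09). Rescaled, the Pigr difference was 0.92 (limma adjusted p = 0.276), opposite in sign to the rescaled median of the list.

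The Wnt and R-spondin list held 25 genes, of which 6 were tested (Fzd7, Lrp6, Lgr4, Ctnnb1, Csnk1a1 and Notum) and none was called in any comparison, with a median in FET against NC of -0.23, between -0.37 (without FET mouse 2) and -0.12 (without NC mouse 5) when 1 mouse was left out. Rescaled, the median of the 6 was 0.17, so its sign changed with the scaling, and that range was -0.09 to 0.36 and included both signs. For all genes tested the median was -0.46, or -0.18 rescaled. The ligands of the central vein were near the limit of detection. Wnt2 was listed at 0 in NC mouse 1 and FET mice 2 and 4 and was between 0.184 and 1.26 FPKM in the others. Wnt9b was above 0 in 3 mice, at 0.462 FPKM in NC mouse 5, 0.419 in NC mouse 6 and 0.080 in IVF mouse 2. Rspo3, which encodes R-spondin 3, ranged from 0.366 to 1.41 FPKM in NC and IVF, and was 3.09, 0.819 and 0 in FET mice 2, 3 and 4. The target genes Axin2, Nkd1 and Sp5 were as low, and Axin2 and Nkd1 were also in the pericentral list. Axin2 had 0.278, 0.558 and 0.823 FPKM in NC and at most 0.132 in the other 6 mice, 3 of which were listed at 0. It was under the minimum for a test. Every FET mouse was below every NC mouse for 17.1% of the genes tested. The share of genes with NC above both other groups was not counted. Nkd1, another feedback inhibitor, was between 0.277 and 0.905 FPKM in 8 mice and at 0 in FET mouse 2. Sp5 was listed at 0 in IVF mouse 3 and FET mice 2 and 4 and was between 0.058 and 1.74 FPKM elsewhere. FET mice 2 and 4 were both at 0 for Wnt2, Axin2 and Sp5, as they were for 54.3% of all genes above 0 in any mouse. Other genes of the list were above 0 in both, with 3.98 and 1.73 FPKM for Notum, which encodes a secreted Wnt inhibitor, and 2.40 and 4.27 FPKM for Ctnnb1, the beta-catenin gene, and Rspo3 was at its highest in FET mouse 2.

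For glutamine, glutamate and ammonia handling, 12 of 15 genes were tested, 4 of them being Glul, Gls2, Slc1a2 and Rhbg, and none was called in any comparison. Oat and Cps1 of this list were also in the pericentral and the periportal list, so the lists are not separate. In FET against NC 11 of the 12 had a lower estimate, against 74.4% of all genes tested, with a median of -0.98 against -0.46 for all genes, or -0.80 against -0.18 rescaled. Leaving out 1 mouse gave -1.30 to -0.72, or -0.96 to -0.61 rescaled. Slc38a3, the glutamine transporter of hepatocytes, was the exception, at 71.4, 40.4 and 50.6 FPKM in NC and 98.0, 59.1 and 28.7 in FET, a log2 difference of 0.06 (SE 1.06). Glud1, glutamate dehydrogenase, had 41.4, 51.6 and 59.2 FPKM in NC and 23.8, 45.9 and 15.5 in FET, a difference of -0.94 (SE 1.02). Rhcg, a relative of Rhbg, was listed at 0 in all 9.

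The genes most like each tested marker over the 9 mice were taken from 5736 protein-coding genes by Pearson r of log2(FPKM + 1), as a description. They were Acadl (0.989) and Slc44a1 (0.988) for Glul, Ap3d1 (0.990) and Ugt3a2 (0.986) for Slc1a2, and Timm10b (0.976) and Stard3 (0.973) for Rhbg. For Tbx3 they were Myo7a (0.969) and BC031181 (0.952), and for Gls2 they were Abat (0.985) and Mup3 (0.991), a member of a gene family of near-identical copies. The points share the composition of their libraries, and the median r over all genes was 0.71 for Glul, 0.72 for Slc1a2, 0.61 for Rhbg and 0.65 for Gls2, but 0.15 for Tbx3. Between markers, Glul had an r of 0.940 with Slc1a2, 0.928 with Rhbg and 0.791 with Gls2, and 0.011 with Tbx3. On rescaled values these fell to 0.285, 0.523 and 0.048, with -0.388 for Tbx3, and of the closest genes Myo7a was again first for Tbx3 (0.976) while the 2 closest to each of the other 4 markers were different genes.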

How the data were processed

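Liver RNA of 9 mice was analysed in 3 groups taken from the labels, and diet and sex come from the methods. The authors trimmed and mapped the reads and deposited FPKM for 55335 genes. The submitters' processing notes name FastQC 0.11.5, STAR 2.5.3a, StringTie 1.3.1c and DESeq2 1.16.1, without saying which made the table. Build, annotation and strandedness are not given in the sources used here. Symbols and positions come from GENCODE vM21 (GRCm38), which matched 55154 identifiers, and the promoter windows from RefSeq (GRCm38.p6).

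Depth was estimated from single-fragment steps in low FPKM values. Between 41.6% and 49.7% of the values used lay within 2% of a step, against 11.3% by chance. This covers counting error only. Too few values lay on steps to recover counts, so no count test was run. The test was limma 3.58.1 (R 4.3.3) for the 6755 genes averaging at least 1 FPKM, on log2 values with a pseudocount of 1, 3 groups in 1 model with a variance trend, two-sided, Benjamini-Hochberg adjusted over all genes tested, with a threshold of 0.05. Fold changes are on this scale and understate low genes. The procedure was tested on simulated data.

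The members, lists and tests were chosen with earlier results of these data known. Named beyond the 7 markers were the 3 tested pericentral and periportal genes with the highest mean FPKM, the ligands Wnt2, Wnt9b and Rspo3, the targets Axin2, Nkd1 and Sp5, and Glud1, Slc38a3 and Rhcg, any listed gene past the threshold, and the 2 genes closest to each tested marker. Some genes this rule gives are not reported here. G6pc, Ass1, the other genes named as above all 7 mice outside NC mice 5 and 6, Notum, Ctnnb1 and the genes overlapping a marker were named after their values were seen. Alternatives were a pseudocount of 0.1, no filter, median-ratio scaling, rescaling to nuclear protein-coding genes, a fit of only the groups compared, the mouse number as a block, libraries S67 to S76 only, and leaving out each mouse. Their combinations with rescaling, and their use on the Wnt and glutamine list medians, were chosen after seeing the data.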

Additional observations from a re-analysis of the deposited data

How the results depend on the processing

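Over 185 combinations of a tested marker, a comparison and an alternative, none was called, the lowest limma adjusted p was 0.258, and 168 kept their direction. Glul in IVF against NC turned from -0.32 to 0.12 with median-ratio scaling, 0.02 rescaled and 0.03 with libraries S67 to S76 only (-0.07 with both), which leave 1 NC mouse, assumed to vary like the others. With S67 to S76 only, Slc1a2 in IVF against NC was 0.10, Tbx3 0.34 (0.71 rescaled), and rescaled Gls2 in FET against NC 0.06; Gls2 in FET against IVF was 0.22 rescaled. Leaving out each mouse gave, for FET against NC, IVF against NC and FET against IVF, Glul -1.25 to -0.58, -1.02 to 0.34 and -1.16 to 0.19; Slc1a2 -1.26 to -0.74, -0.85 to 0.18 and -1.20 to -0.17; Rhbg -1.86 to -0.70, -0.68 to 0.83 and -2.08 to -0.41; Tbx3 -0.44 to 0.28, -1.09 to -0.37 and 0.51 to 0.82; and Gls2 -2.00 to -1.02, -1.91 to -0.69 and -0.68 to 0.36. Rescaled, the ranges that crossed 0 were Glul -0.37 to 0.07, -0.08 to 0.12 and -0.39 to 0.05, and in IVF against NC Rhbg -0.13 to 0.74 and Tbx3 -1.15 to 0.05. Rescaled Rhbg passed without FET mouse 3, which leaves FET libraries listed at 0 (-4.43, limma adjusted p = 0.0154, against NC, and -4.83, 0.0154, against IVF). Genes called in FET against NC (16) became 0 without a filter (2618 at an unadjusted p under 0.05) and with only the groups compared (1031), 26 with median-ratio scaling, 6 with S67 to S76 only, and 1 to 83 on leaving out a mouse (1 without FET mouse 3, 83 without NC mouse 1, 57 without FET mouse 2). In IVF against NC (4) they became 0 with a pseudocount of 0.1 (179 unadjusted), no filter (1580), median-ratio scaling (389), rescaling (315) and only the groups compared (318), 2 with S67 to S76 only, and 0 to 24. In FET against IVF (6) they became 0 with no filter (829), only the groups compared (207) and S67 to S76 only (193), and 0 to 10. Rescaled, leaving out a mouse gave 2 to 211 genes in FET against NC (14; 2 without NC mouse 5, 3 without NC mouse 6, 211 without FET mouse 3, 76 without NC mouse 1) and 2 to 147 in FET against IVF (9; 2 without IVF mouse 3 or 4, 147 without FET mouse 3). The Glul to Gls2 difference with S67 to S76 only went from 0.55 to -0.35 in FET against NC and from 0.96 to 0.06 in IVF against NC; leaving out a mouse gave 0.30 to 1.0, 0.71 to 1.41 and -0.59 to -0.16. With the mouse number as a replicate block, possible for FET against IVF only, 2 genes were called and Rhbg stayed at -1.30; same-numbered mice did not deviate together (r -0.131, 0.0215 and -0.255), so the numbers were not taken as pairs. The causes were not tested. At the estimated depth 1 Rhbg fragment stands for 0.259 FPKM in FET mouse 2 and 0.179 in FET mouse 4, which were listed at 0.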

Other observations

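FET mouse 2, the mouse with the lowest rescaled Glul (421), had 36.8 FPKM of Cd5l and 33.8 of Clec4f, both made by Kupffer cells, against at most 7.97 and 18.5 in the other 8 mice. The rescaled sum of 6 Kupffer cell markers was 857, 187 and 238 in FET mice 2, 3 and 4, all above the highest NC (181) and IVF (179) sums. In FET mouse 2, 4 of the 6 (Clec4f, Cd5l, Marco and Adgre1) were at their highest of the 9 mice on both scales. The other 2 were within the range of the other 8, rescaled Vsig4 at 14.9 against 8.37 to 64.2 and rescaled Csf1r at 19.1 against 5.30 to 19.3. On deposited FPKM the sum was 78.3, 24.1 and 10.8 in FET, 13.1 to 28.3 in NC and 4.07 to 32.1 in IVF. Marco, a macrophage scavenger receptor, was at 3.65 FPKM in FET mouse 2 and 2.25 in FET mouse 3 and at most 0.081 in the others, and Adgre1, which encodes F4/80, was at 0.931 FPKM in FET mouse 2 and at most 0.247 in the others, 4 of which were listed at 0. No Kupffer cell marker was called by limma in any comparison (lowest adjusted p 0.229 on rescaled values, FET against NC), and their part in the zonation values was not tested. The rescaled sum of 6 stellate cell markers was 67.1 to 122 in NC, 135 to 253 in IVF and 34.2 to 238 in FET, and that of 6 endothelial markers 62.3 to 77.6, 34.8 to 67.01 and 53.4 to 123, so the central vein endothelium that makes Wnt ligands cannot be followed separately from these totals. Of 5 T and B cell markers none reached the minimum for a test.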
